A study of Homo sapiens with 14 samples.

Results

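The BCL2 family decides whether the outer membrane of the mitochondrion is opened during apoptosis, and 10 of its genes were followed here in prostate cancer cells given inhibitors of fucosylation or sialylation. The members were taken by gene symbol as BCL2, BCL2L1, MCL1, BAX, BAK1, BID, BCL2L11, BBC3, PMAIP1 and BMF, which are 10 of the 28395 genes listed in the count tables, and all 10 had enough counts to be tested in every comparison. Levels are given as CPM, a gene's counts as a share of its library's total scaled by the TMM method over all libraries. Fold changes come from a separate fit of each inhibitor with DMSO by edgeR's quasi-likelihood test, and a gene is called higher or lower where its Benjamini-Hochberg adjusted p-value over all genes tested was under 0.05.

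RNA-seq was performed on the human line CWR22RV1, prostate cancer cells that express the androgen receptor, after 72 h of treatment. The groups were the vehicle DMSO with 3 libraries, Fucotrim I at 30 μM with 3, Fucotrim II at 60 μM with 2, SGN-2FF at 100 μM with 3 and P-SiaFNEtoc at 2 μM with 3. Fucotrim I and Fucotrim II are derivatives of rhamnose-1-phosphate made to block GMDS, an enzyme of de novo GDP-fucose synthesis, SGN-2FF is 2-fluorofucose, which inhibits fucosyltransferases, and P-SiaFNEtoc is a fluorinated sialic acid that inhibits sialyltransferases. Each inhibitor was compared with the same DMSO libraries. The inhibitors were given at different concentrations, so that their values stand side by side here and were not tested against each other.

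Proteins of the BCL2 family share short sequence stretches called BH domains and fall into groups with opposite roles. The anti-apoptotic members, BCL2, BCL-XL (from BCL2L1) and MCL1, hold the pore formers BAX and BAK1 in check. The BH3-only members, BID, BIM (from BCL2L11), PUMA (from BBC3), NOXA (from PMAIP1) and BMF, bind the anti-apoptotic proteins or activate BAX and BAK1, and once the pore formers assemble, cytochrome c leaves the mitochondrion and caspases are activated. Much of this control takes place at the protein level, which RNA counts do not measure.

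The libraries held 12553094 to 19981453 counts on genes. Mitochondrially encoded genes took 5.98% to 7.03% of the counts in DMSO, 6.11% to 6.83% with P-SiaFNEtoc, 8.27% to 8.68% with SGN-2FF, 8.67% to 14.2% with Fucotrim I and 12.2% to 17% with Fucotrim II. Leaving these genes out of the scaling kept the same members called with each inhibitor as before. The chi-square per gene between replicates, near 1 where libraries differ by counting error alone, was 1.83 to 4.6 among the DMSO libraries, 6.01 to 19.2 with Fucotrim I, where replicate 1 stood apart from both others, and 25.9 between both Fucotrim II libraries. All 8 luminal prostate markers were expressed in every library (KLK3 lowest, at 27.5 to 79.1 CPM), and the basal markers KRT5, KRT14 and TP63 were at 0.379 CPM or below. Of the other markers, SYP (94.5 to 156 CPM), COL1A1 (15.9 to 29.2 CPM) and CD68 (4.59 to 8.03 CPM) were present, while CHGA, COL1A2, PDGFRB, PTPRC and CD3E were at 0.361 CPM or below.

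RefSeq promoter windows (GRCh38.p14, from 250 bases before to 50 bases after a transcription start) were found for 9 of the 10 members, in 15 windows, and not for MCL1. They were searched on both strands for the E-box CACGTG, the cyclic AMP element TGACGTCA, the CHOP and ATF4 element TTGCATCA, the FOXO element GTAAACA and the p53 response element. The E-box, a site of basic helix-loop-helix factors such as MYC, reads the same on both strands and was found in windows of BAX, BBC3 and BID. These sequences, with E-boxes in capitals, were picked after the calls were known, because the same 3 genes were higher with both Fucotrims (values below). Whether the E-box has a part in these rises was not tested. The stretch of BAX before its first annotated exon, chr19:48954625-48954814 on the plus strand, holds 2 of its 4 E-boxes, which begin 138 and 93 bases before the RefSeq start.
BAX: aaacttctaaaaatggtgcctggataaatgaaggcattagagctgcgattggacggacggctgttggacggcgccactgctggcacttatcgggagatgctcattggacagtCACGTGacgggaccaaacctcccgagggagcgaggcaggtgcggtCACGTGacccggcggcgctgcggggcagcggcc
The other 2 E-boxes of BAX begin 45 and 14 bases before that start and lie in bases that GENCODE annotates as exon of BAX transcripts with an earlier start. They are printed with their flanks, as chr19:48954818-48954847 and chr19:48954849-48954878.
BAX, nearer the start: ttgcggggcggcCACGTGaaggacgcacgt
BAX, nearest the start: cagcggggctctCACGTGacccgggcgcgc
The E-box of BBC3 (printed with its flanks, chr19:47232882-47232911, minus strand) lies upstream of the gene's annotated span, 232 bases before a RefSeq start. The E-box of BID (printed with its flanks, chr22:17774072-17774101, minus strand) lies within the gene's span and outside annotated exons, 106 bases before a RefSeq start.
BBC3: atggggagatttCACGTGagatatagatta
BID: ttgtgtcctctcCACGTGgcctggggattc

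Of all 35116 RefSeq windows, 7.26% hold CACGTG and 0.0142% hold 4 or more copies, the number found in BAX. Counted per gene, 12.4% of 11223 tested genes hold it in at least 1 window. The FOXO element was found in BCL2L11, and 3.42% of all windows hold it. In BAK1 there was a single p53 half-site, as in 6.63% of all windows. The p53 response element (in 0.0285% of all windows), the CHOP and ATF4 element (0.866%) and the cyclic AMP element (1.85%) had no match in these windows of the members. Only full matches to each pattern were counted, so imperfect sites and sites outside these windows were not seen. The matches are descriptions of sequence, and binding was not measured.

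With Fucotrim I, 3 members were higher than in DMSO (BAX, BBC3 and BID) and 3 were lower (BCL2, MCL1 and BAK1), against 21.6% of all genes tested called higher and 22.1% called lower. With Fucotrim II, the same 6 members were called in the same directions, BMF was also higher and PMAIP1 was also lower, which gives 4 higher and 4 lower against 25.6% and 25.7% of all genes. Such agreement was common: of 11223 genes tested with both Fucotrims that have a RefSeq promoter window, 1872 were higher and 2128 lower with both. Both comparisons use the same DMSO libraries, so their agreement is not independent. With SGN-2FF, BAX was higher and MCL1 was lower, 1 member each way against 11.5% and 9.08% of all genes, a share near that background. With P-SiaFNEtoc, BCL2L1, BAX and BMF were higher against 9.02% of all genes. No member passed as lower with P-SiaFNEtoc in edgeR's test, in DESeq2 or in limma-voom, against 7.33% of all genes, and 3 were lower at an unadjusted p under 0.05 in edgeR's test (MCL1, BCL2L11 and PMAIP1). The members' counts with both Fucotrims were above the shares over all genes in each direction, and with so few genes they are not by themselves a result about the family.

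The size of the changes was modest. The median size of the members' log2 fold changes was 0.27 with Fucotrim I, 0.50 with Fucotrim II, 0.12 with SGN-2FF and 0.18 with P-SiaFNEtoc, and over all genes tested it was 0.21, 0.33, 0.12 and 0.11. No treated library fell within or across the DMSO range for 6 members with Fucotrim I (52.6% of all genes), 9 with Fucotrim II (67.6%), 5 with SGN-2FF (36.4%) and 6 with P-SiaFNEtoc (33.7%). BAX was called with all inhibitors and BCL2L11 with none, and the shares of all genes called with all or with none were not computed. In RNA from whole cultures, fewer cells that express a gene and less RNA per cell cannot be told apart.

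**Figure D1:**
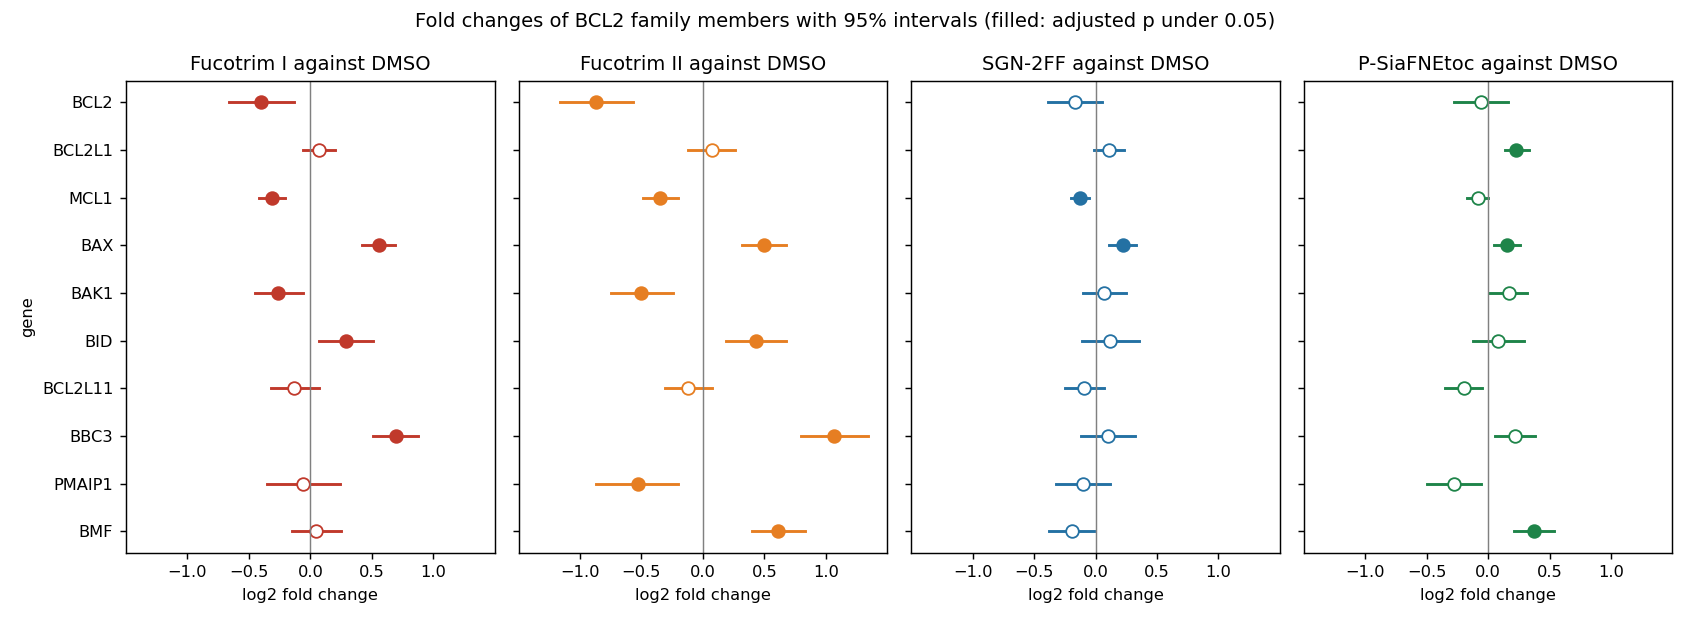
Log2 fold changes of the 10 members against DMSO, in 1 panel per inhibitor, with 95% intervals from edgeR's quasi-likelihood fit. Filled circles mark an adjusted p under 0.05: 6 members with Fucotrim I, 8 with Fucotrim II, 2 with SGN-2FF and 3 with P-SiaFNEtoc.

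Of the anti-apoptotic members, MCL1 and BCL2 were lower with both Fucotrims and BCL2L1 was not. MCL1 (chr1:150560895-150579738, minus strand) encodes a short-lived guard of BAK1 and BAX that cells must keep making. It was at 404, 370 and 384 CPM in the 3 DMSO libraries, at 301, 327 and 302 CPM with Fucotrim I, at 305 and 305 CPM with Fucotrim II, at 345, 350 and 358 CPM with SGN-2FF and at 365, 373 and 352 CPM with P-SiaFNEtoc. The libraries of both Fucotrims and of SGN-2FF all lay below those of DMSO, and only those of P-SiaFNEtoc overlapped with them. MCL1 fell by 0.31 on the log2 scale with Fucotrim I (standard error 0.05, edgeR adjusted p = 4.52e-05), by 0.35 with Fucotrim II (standard error 0.06, edgeR adjusted p = 0.00153) and by 0.13 with SGN-2FF (standard error 0.04, edgeR adjusted p = 0.0178). With P-SiaFNEtoc its log2 fold change was -0.08 (95% interval -0.17 to -0.00, edgeR adjusted p = 0.158). The call with SGN-2FF was lost without DMSO replicate 1 (edgeR adjusted p = 0.113), SGN-2FF replicate 1 (0.0826) or SGN-2FF replicate 2 (0.0886), and with all 14 libraries in 1 fit (0.0673). ADAMTSL4-AS1, which shares 5.3% of the exon bases of MCL1 on the same strand, had at most 3 counts in any library.

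BCL2 (chr18:63123346-63320128, minus strand), the founding member, whose protein sits on the mitochondrion and the endoplasmic reticulum, had the largest fall among the anti-apoptotic members. Its levels were 10.4, 9.11 and 10.2 CPM in DMSO, 8.74, 6.62 and 7.11 CPM with Fucotrim I, 5.29 and 5.6 CPM with Fucotrim II, 8.71, 9.03 and 8.43 CPM with SGN-2FF and 10.1, 9.71 and 8.44 CPM with P-SiaFNEtoc. Both Fucotrim II libraries were lower than every other library of the series, and the highest Fucotrim I library, replicate 1, came within the range of SGN-2FF. The log2 fold change was -0.87 with Fucotrim II (standard error 0.13, edgeR adjusted p = 0.00055), which is 0.55 of the DMSO level, and -0.40 with Fucotrim I (standard error 0.13, edgeR adjusted p = 0.0151). With SGN-2FF it was -0.17 (95% interval -0.39 to 0.05) and with P-SiaFNEtoc it was -0.06 (95% interval -0.28 to 0.16), and neither passed. The SGN-2FF libraries all lay below those of DMSO, and those of P-SiaFNEtoc overlapped with them. The gene had 85 to 211 counts per library, and its Fucotrim I call was lost without DMSO replicate 1 (edgeR adjusted p = 0.0587), Fucotrim I replicate 2 (0.0746) or Fucotrim I replicate 3 (0.0617).

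BCL2L1 (chr20:31664452-31723989, minus strand), which encodes BCL-XL and, from a shorter splice form, the pro-apoptotic BCL-XS, moved the other way with P-SiaFNEtoc. It was at 60.4, 60.8 and 60.7 CPM in DMSO and at 69.8, 71.4 and 72.1 CPM with P-SiaFNEtoc, a rise of 0.23 on the log2 scale (standard error 0.05, edgeR adjusted p = 0.000933). All 3 P-SiaFNEtoc libraries were above all of DMSO, and the call was lost only with all 14 libraries in 1 fit (edgeR adjusted p = 0.0557) among the 14 alternatives. Fucotrim I gave 61.7, 60.3 and 68.5 CPM, Fucotrim II gave 57.5 and 70.2 CPM, and SGN-2FF gave 72.3, 61.6 and 61.4 CPM. In each of these groups a single library was well above the DMSO range, and the log2 fold changes of 0.07, 0.07 and 0.11 did not pass. The lower SGN-2FF libraries, at 61.6 and 61.4 CPM, were also just above all of DMSO. With Fucotrim II the direction turned without replicate 2 (-0.09) and stayed positive without replicate 1 (0.20), and each of these fits rests on a single treated library. The gene counts do not separate both splice forms, and 41.3% of the exon bases of BCL2L1 are shared with ABALON on the opposite strand. The kit keeps strand, the strand setting of the counting was not given in the sources used here, and so reads of both genes may not be told apart.

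The pore formers BAX and BAK1 changed in opposite directions with the Fucotrims. BAX (chr19:48954815-48961798, plus strand) is held in the cytosol until activated, and it was the only member called with every inhibitor. Its levels were 64.3, 70.9 and 71.6 CPM in DMSO, 109, 91.5 and 103 CPM with Fucotrim I, 91.2 and 104 CPM with Fucotrim II, 82.8, 80.6 and 74.7 CPM with SGN-2FF and 75.2, 72.7 and 81.6 CPM with P-SiaFNEtoc. All 11 treated libraries were above all 3 DMSO libraries, and the 5 Fucotrim libraries were above all others. The comparisons share these DMSO libraries, so they are not independent of each other. BAX rose by 0.56 on the log2 scale with Fucotrim I (standard error 0.07, edgeR adjusted p = 1.39e-06) and by 0.50 with Fucotrim II (standard error 0.08, edgeR adjusted p = 0.000731), or 1.47-fold and 1.41-fold. The Fucotrim I call held under all 14 alternatives, with log2 fold changes of 0.51 to 0.63. The Fucotrim II call held under those with both Fucotrim II libraries, and over all 14 its log2 fold changes were 0.39 to 0.59.

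The BAX rises with the other inhibitors were smaller. The log2 fold change was 0.22 with SGN-2FF (standard error 0.05, edgeR adjusted p = 0.00438) and 0.15 with P-SiaFNEtoc (standard error 0.05, edgeR adjusted p = 0.0419). The SGN-2FF call was lost without DMSO replicate 1 (edgeR adjusted p = 0.051) and with all 14 libraries in 1 fit (0.0665). The P-SiaFNEtoc call was lost in DESeq2 (adjusted p = 0.0943), in limma-voom (0.0545), with all libraries in 1 fit (0.215) and without DMSO replicate 1 (0.22), P-SiaFNEtoc replicate 1 (0.063) or P-SiaFNEtoc replicate 3 (0.193).

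BAK1 (chr6:33572547-33580293, minus strand), the pore former that resides in the mitochondrial membrane, was at 21.7, 20 and 24.4 CPM in DMSO, at 19.6, 17.1 and 18.4 CPM with Fucotrim I and at 14.5 and 16.7 CPM with Fucotrim II. All Fucotrim libraries lay below those of DMSO. BAK1 fell by 0.50 on the log2 scale with Fucotrim II (standard error 0.11, edgeR adjusted p = 0.00533) and by 0.26 with Fucotrim I (standard error 0.09, edgeR adjusted p = 0.029). The Fucotrim II call was kept under every alternative with both Fucotrim II libraries. The Fucotrim I call was lost in DESeq2 (adjusted p = 0.0733) and without DMSO replicate 1 (edgeR adjusted p = 0.0571), DMSO replicate 3 (0.177), Fucotrim I replicate 2 (0.105) or Fucotrim I replicate 3 (0.0776). With SGN-2FF the levels were 23.2, 24.9 and 20.3 CPM and with P-SiaFNEtoc 23, 24.9 and 26 CPM, with log2 fold changes of 0.07 (95% interval -0.10 to 0.25) and 0.17 (95% interval 0.01 to 0.32, edgeR adjusted p = 0.138). A pseudogene, BAK1P1, holds 3.7% of the 100-base windows of BAK1 transcripts, so that a small share of its reads could be placed at either gene.

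Among the BH3-only members, BBC3 had the largest change of the family. BBC3 (chr19:47220822-47232766, minus strand) encodes PUMA, which binds all anti-apoptotic members and is best known as a target of p53. It was at 39.5, 30.1 and 39.1 CPM in DMSO, at 63.1, 55.4 and 57.3 CPM with Fucotrim I, at 69.4 and 83.2 CPM with Fucotrim II, at 41, 39.8 and 34.3 CPM with SGN-2FF and at 41.5, 43 and 41.6 CPM with P-SiaFNEtoc. The lowest Fucotrim library was above the highest of all other groups, and DMSO replicate 2 was the lowest of the series. BBC3 rose by 1.07 on the log2 scale with Fucotrim II (standard error 0.12, edgeR adjusted p = 0.000111) and by 0.70 with Fucotrim I (standard error 0.09, edgeR adjusted p = 5.61e-06), or 2.10-fold and 1.62-fold. The Fucotrim I call held under all 14 alternatives, and the Fucotrim II call under those with both Fucotrim II libraries.

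With SGN-2FF the log2 fold change of BBC3 was 0.10 (95% interval -0.12 to 0.32), and without DMSO replicate 2 it was -0.02. With P-SiaFNEtoc it was 0.22 (standard error 0.08) and missed the threshold (edgeR adjusted p = 0.055), although all 3 libraries lay above those of DMSO. It passed there in limma-voom (adjusted p = 0.0451), with no filter on low counts (edgeR adjusted p = 0.00631) and without DMSO replicate 1 (0.0113) or DMSO replicate 3 (0.0325).

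BID (chr22:17734138-17774770, minus strand), which caspase-8 cleaves to carry the death receptor signal to mitochondria, was higher with both Fucotrims. Its levels were 9.18, 9.67 and 10.1 CPM in DMSO, 11.4, 12.1 and 11.7 CPM with Fucotrim I, 12.5 and 13.6 CPM with Fucotrim II, 11.7, 10.7 and 8.66 CPM with SGN-2FF and 10.7, 9.71 and 10 CPM with P-SiaFNEtoc. The Fucotrim libraries did not overlap with DMSO, and those of SGN-2FF spread across the DMSO range. BID rose by 0.43 on the log2 scale with Fucotrim II (standard error 0.11, edgeR adjusted p = 0.00831) and by 0.29 with Fucotrim I (standard error 0.10, edgeR adjusted p = 0.0309). The Fucotrim I call held under 7 of 14 alternatives, and it was lost whichever DMSO library was left out (edgeR adjusted p = 0.12, 0.0691 and 0.0506), without Fucotrim I replicate 2 (0.0777) or replicate 3 (0.0598), in DESeq2 (0.096) and with no filter on low counts (0.0576). The log2 fold changes with SGN-2FF and P-SiaFNEtoc were 0.12 (95% interval -0.11 to 0.35) and 0.08 (95% interval -0.12 to 0.29).

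BMF (chr15:40087890-40108892, minus strand), whose protein is held at the motor proteins of the actin skeleton until released, was called with Fucotrim II and with P-SiaFNEtoc. It was at 14.2, 14.4 and 13.3 CPM in DMSO, at 22.2 and 20.7 CPM with Fucotrim II and at 17.8, 18.5 and 17.9 CPM with P-SiaFNEtoc, with no overlap between any of these groups. The rises were 0.61 on the log2 scale with Fucotrim II (standard error 0.09, edgeR adjusted p = 0.000597) and 0.37 with P-SiaFNEtoc (standard error 0.08, edgeR adjusted p = 0.00164). The P-SiaFNEtoc call held under all 14 alternatives, and the Fucotrim II call under those with both Fucotrim II libraries. Fucotrim I left BMF within the DMSO range or just above it, at 15.2, 14.2 and 13.6 CPM, with a log2 fold change of 0.05 (95% interval -0.15 to 0.25). With SGN-2FF the levels of 12.7, 11.7 and 12 CPM were below all of DMSO, and the log2 fold change of -0.19 did not pass (edgeR adjusted p = 0.136). BMF-AS1 covers 8.5% of the exon bases of BMF on the opposite strand.

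PMAIP1 (chr18:59899996-59904305, plus strand) encodes NOXA, which binds MCL1 and is known as a target of p53 and of ATF4. Its levels were 12.5, 9.94 and 10.1 CPM in DMSO, 8.03, 12.6 and 10.6 CPM with Fucotrim I, 8.24 and 6.84 CPM with Fucotrim II, 9.92, 9.62 and 10.7 CPM with SGN-2FF and 8.8, 9.64 and 8.44 CPM with P-SiaFNEtoc. Fucotrim I spread over more than the whole DMSO range, while both Fucotrim II libraries were below it. PMAIP1 fell by 0.53 on the log2 scale with Fucotrim II (standard error 0.15, edgeR adjusted p = 0.014), a call lost without DMSO replicate 1 (-0.43, edgeR adjusted p = 0.0563). With P-SiaFNEtoc the log2 fold change of -0.28 missed the threshold (edgeR adjusted p = 0.0765) with all 3 libraries below DMSO, and it passed narrowly without DMSO replicate 2 (edgeR adjusted p = 0.0492). The values with Fucotrim I and SGN-2FF were -0.06 (95% interval -0.35 to 0.24) and -0.10 (95% interval -0.32 to 0.12), and their direction turned without DMSO replicate 1 (0.06 and 0.01).

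BCL2L11 (chr2:111119378-111168444, plus strand) encodes BIM, which binds every anti-apoptotic member and activates BAX and BAK1. It was at 22.3, 21.5 and 21.9 CPM in DMSO, at 23.4, 18.6 and 18 CPM with Fucotrim I, at 19.7 and 20.7 CPM with Fucotrim II, at 18.2, 21.6 and 21.2 CPM with SGN-2FF and at 18.2, 20 and 18.9 CPM with P-SiaFNEtoc. It was the only member called with none of the inhibitors, and its log2 fold changes were -0.13, -0.12, -0.09 and -0.20. The P-SiaFNEtoc libraries were all below DMSO, and that difference came close to the threshold (95% interval -0.35 to -0.05, edgeR adjusted p = 0.0543). Fucotrim I replicate 1 was above every DMSO library and both other Fucotrim I libraries were below them, so that the gene was called lower without replicate 1 (-0.25, edgeR adjusted p = 0.0304). MIR4435-2HG shares 10.8% of the exon bases of BCL2L11 on the opposite strand and had at most 4 counts in any library.

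**Figure D2:**
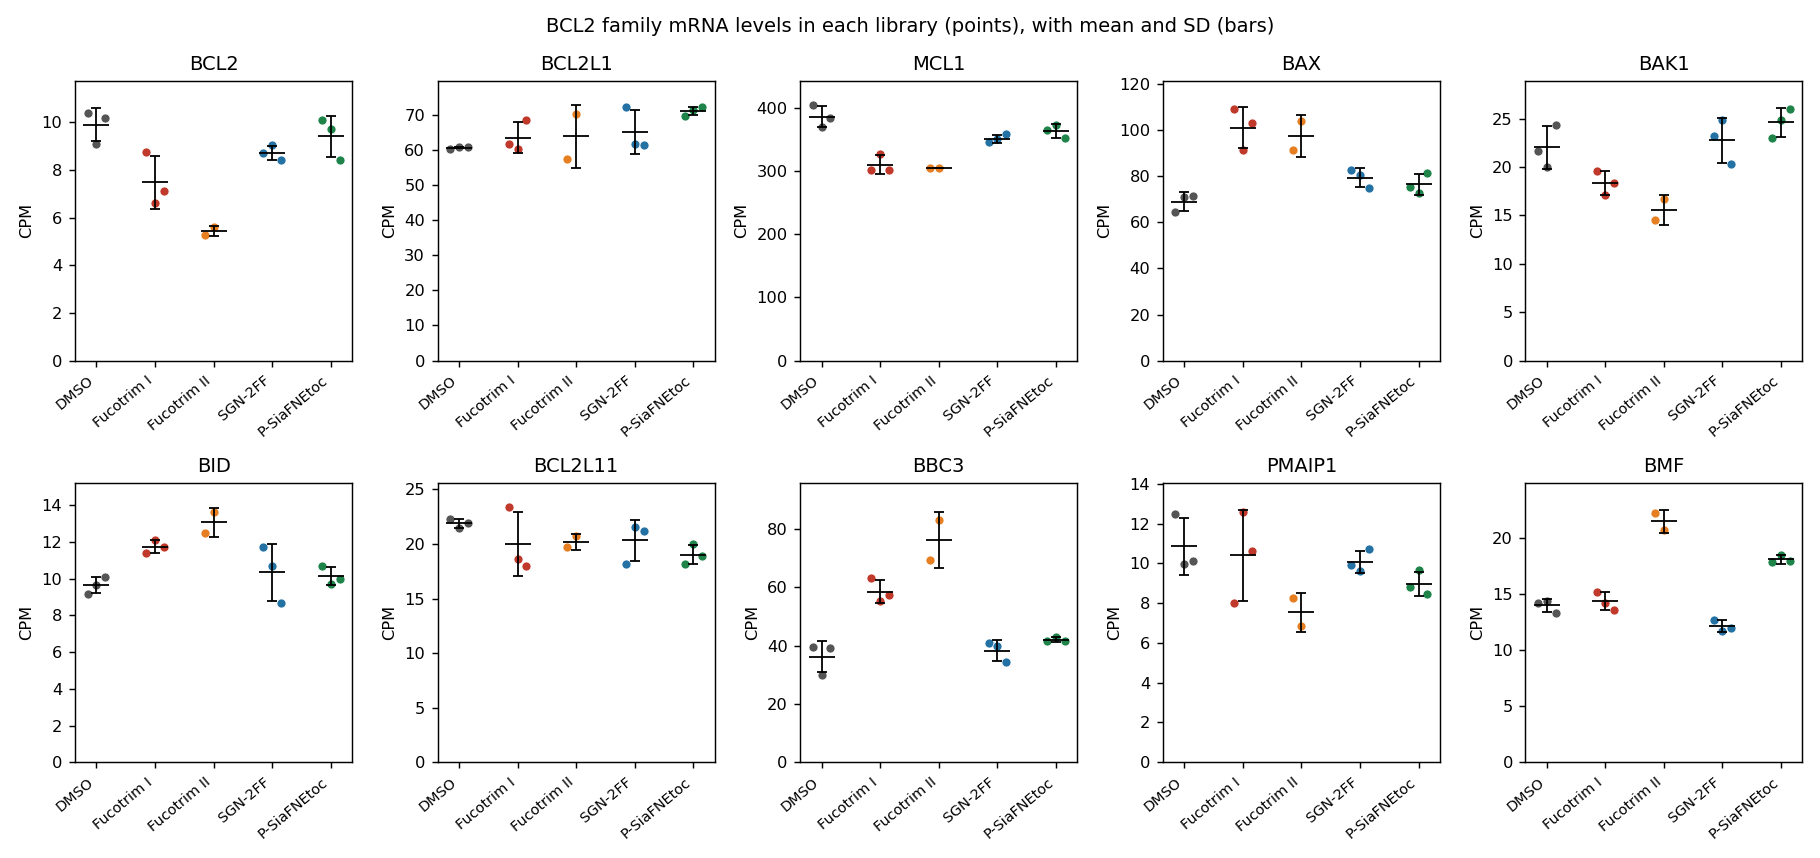
Level of each member in CPM (vertical axes from 0) in the 14 libraries, with the group mean and SD as bars. BAX lay at 91.2 to 109 CPM in the Fucotrim libraries and at 64.3 to 71.6 CPM in DMSO, BBC3 was highest with Fucotrim II (69.4 and 83.2 CPM), and BCL2 was lowest there (5.29 and 5.6 CPM).

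Ordered by mean level, the groups fell into different sequences for different members. For BAX the order was Fucotrim I, Fucotrim II, SGN-2FF, P-SiaFNEtoc and DMSO, and the libraries of neighbouring groups overlapped between both Fucotrims and between SGN-2FF and P-SiaFNEtoc. The order for BBC3 was Fucotrim II, Fucotrim I, P-SiaFNEtoc, SGN-2FF and DMSO, with overlap only between SGN-2FF and DMSO. For BMF it was Fucotrim II, P-SiaFNEtoc, Fucotrim I, DMSO and SGN-2FF, with overlap only between Fucotrim I and DMSO. For BCL2 it was DMSO, P-SiaFNEtoc, SGN-2FF, Fucotrim I and Fucotrim II, and all neighbours but Fucotrim I and Fucotrim II overlapped. MCL1 had the same order as BCL2, with a gap only between SGN-2FF and Fucotrim I. For BCL2L1 and BCL2L11, every group overlapped with the next.

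Levels of different members were set side by side per length, as CPM per kilobase of the MANE Select transcript. In DMSO, MCL1 (97.7 ± 4.29, SD, n = 3) and BAX (86.7 ± 5.08) were highest, followed by BCL2L1 (23.6 ± 0.0941), BBC3 (19.6 ± 2.88) and BAK1 (10.1 ± 1.02). PMAIP1 (5.72 ± 0.742), BID (4.43 ± 0.208), BCL2L11 (4.3 ± 0.0804), BMF (2.97 ± 0.126) and BCL2 (1.44 ± 0.101) were lowest on this scale. Of the anti-apoptotic members, MCL1 mRNA was thus the most abundant and BCL2 mRNA the least. With Fucotrim I, BAX (127 ± 11.1, SD, n = 3) was above MCL1 (78.5 ± 3.76) on the same scale, and with Fucotrim II it was at 123 ± 11.7 (SD, n = 2) against 77.1 ± 0.0183. Reads of a gene can come from transcripts of other lengths than the one used, and this scale does not account for it.

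Ratios of counts within a library do not depend on the scaling. BAX had 6.19, 7.78 and 7.01 counts per count of BCL2 in DMSO, 12.4, 13.8 and 14.5 with Fucotrim I, 17.2 and 18.7 with Fucotrim II, 9.5, 8.93 and 8.86 with SGN-2FF and 7.41, 7.49 and 9.66 with P-SiaFNEtoc. The libraries of both Fucotrims and of SGN-2FF lay above those of DMSO, and P-SiaFNEtoc overlapped with it. PMAIP1 had 0.0309, 0.0269 and 0.0265 counts per count of MCL1 in DMSO, 0.0266, 0.0384 and 0.0352 with Fucotrim I, 0.027 and 0.0224 with Fucotrim II, 0.0287, 0.0275 and 0.0299 with SGN-2FF and 0.0241, 0.0259 and 0.024 with P-SiaFNEtoc. Here only P-SiaFNEtoc lay apart from DMSO, below it. These ratios are descriptions of both genes of a pair, and no test was run on them.

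**Figure D3:**
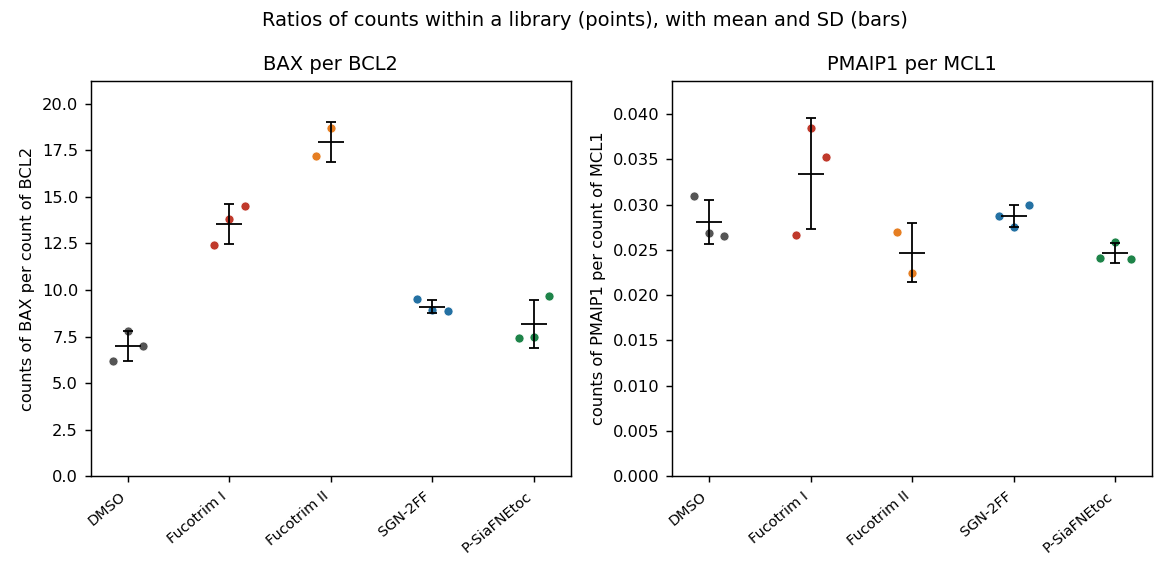
Counts of BAX per count of BCL2 (left) and of PMAIP1 per count of MCL1 (right) in each library, with the group mean and SD as bars and axes from 0. The left ratio was 6.19 to 7.78 in DMSO, 12.4 to 14.5 with Fucotrim I and 17.2 to 18.7 with Fucotrim II, while the right ratio of most groups overlapped with DMSO.

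The other genes of the apoptosis machinery were read from 9 lists of 67 genes in all, of which 56 were tested with Fucotrim I, 59 with Fucotrim II, 56 with SGN-2FF and 58 with P-SiaFNEtoc. Over all lists, 8 genes were higher and 18 lower with Fucotrim I (21.6% and 22.1% of all genes tested), 13 and 17 with Fucotrim II (25.6% and 25.7%), 4 and 9 with SGN-2FF (11.5% and 9.08%), and 5 and 7 with P-SiaFNEtoc (9.02% and 7.33%). The counts of single lists below rest on 1 to 15 genes each and are to be read beside these shares. The median log2 fold changes of -0.05, -0.02, -0.04 and 0.01 were close to those of all genes tested (0.00, 0.01, 0.00 and 0.00). Within each list, the gene named is the one with the largest change among those called. BIRC6, APAF1 and DDIT3 with Fucotrim II, and CFLAR with the Fucotrims were added after their values were seen.

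Among close relatives of the members, BCL2L2, which encodes the anti-apoptotic BCL-W, was the only tested gene among 3 other anti-apoptotic ones, and it was higher with Fucotrim II (0.29), SGN-2FF (0.17) and P-SiaFNEtoc (0.20). BOK, a further pore former, was higher with Fucotrim I (0.25), Fucotrim II (0.41) and P-SiaFNEtoc (0.27). Of the other BH3-only genes, BIK was at 4.89 ± 1.03 CPM (SD, n = 3) without and at 9.59 ± 0.984 CPM (SD, n = 2) with Fucotrim II, and rose by 0.97 on the log2 scale (standard error 0.18, edgeR adjusted p = 0.00151). Of 4 tested atypical relatives, 2 were lower with Fucotrim I, led by BCL2L13 (-0.23), which was also the largest fall of this list with Fucotrim II (-0.27), and with SGN-2FF 2 were lower, led by BNIP3L (-0.17), a receptor for the removal of mitochondria.

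Downstream of the mitochondrion, 6 of 15 execution genes were lower and 1 was higher with Fucotrim I, and 7 were lower and 1 higher with Fucotrim II, against 22.1% and 25.7% of all genes lower and 21.6% and 25.6% higher, with list medians of -0.10 and -0.22. APAF1, which forms the apoptosome with cytochrome c, fell by 0.49 on the log2 scale with Fucotrim I, by 0.57 with Fucotrim II, by 0.21 with SGN-2FF and by 0.20 with P-SiaFNEtoc. The largest change of this list with Fucotrim II was a rise of ENDOG, a mitochondrial nuclease, by 1.02 (standard error 0.20, edgeR adjusted p = 0.00217). Its libraries were spread widely, at 81.3 ± 25.3 CPM with Fucotrim II (SD, n = 2) and 39.9 ± 8.86 CPM in DMSO (SD, n = 3). Of 5 tested inhibitors of apoptosis, 3 were lower with each Fucotrim (22.1% and 25.7% of all genes) and 1, BIRC6, was higher with Fucotrim I (0.19, edgeR adjusted p = 0.0247). BIRC5, which encodes survivin and is expressed mainly in dividing cells, fell from 203 ± 5.58 CPM in DMSO to 151 ± 8.03 CPM with Fucotrim I (SD, n = 3 each) and 112 ± 21.5 CPM with Fucotrim II (SD, n = 2). BIRC5 was also the largest fall of its list with SGN-2FF (-0.19) and P-SiaFNEtoc (-0.13).

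Of the death receptor route, 4 of 10 genes were higher with Fucotrim I and 6 of 11 with Fucotrim II, against 21.6% and 25.6% of all genes. CASP8, whose protein cleaves BID, rose by 0.62 on the log2 scale with Fucotrim I (standard error 0.14, edgeR adjusted p = 0.00137) and by 0.63 with Fucotrim II (standard error 0.16, edgeR adjusted p = 0.00774). It was at 4.63 ± 0.169 CPM in DMSO (SD, n = 3), with as few as 71 counts in a library. The genes called higher also included CFLAR, an inhibitor of caspase-8. CFLAR rose by 0.20 with Fucotrim I (standard error 0.08, edgeR adjusted p = 0.0341) and by 0.40 with Fucotrim II (standard error 0.09, edgeR adjusted p = 0.00496). Of 6 genes that hold or degrade members, 2 were lower with each Fucotrim, led by DYNLL2 (-0.16 with Fucotrim I), a light chain that holds BMF, and HUWE1 (-0.28 with Fucotrim II), a ubiquitin ligase of MCL1. Among 12 transcription factors known for members, 1 was higher and 5 were lower with Fucotrim I, and DDIT3, which encodes CHOP, fell by 1.09 (standard error 0.10, edgeR adjusted p = 1.56e-06). With Fucotrim II, 3 were higher and 3 were lower, and of these NFKB1 changed most (-0.53). DDIT3 was not called there (0.13, edgeR adjusted p = 0.156).

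With SGN-2FF and P-SiaFNEtoc, the calls of these lists were as follows. In the death receptor route, CFLAR, which was also higher with both Fucotrims, was the gene called with SGN-2FF (0.26). With P-SiaFNEtoc 1 gene of this route was higher and 1 lower, the larger change being that of the receptor FAS (-0.32). Of the genes that hold or degrade members, 1 was lower with each, USP9X (-0.12 with SGN-2FF), which removes ubiquitin from MCL1, and DYNLL1 (-0.16 with P-SiaFNEtoc), which holds BIM. Of the transcription factors, 2 were higher and 3 lower with SGN-2FF, led by TRIB3 (-0.38), and 2 were higher and 2 lower with P-SiaFNEtoc, led by DDIT3 (-0.31).

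**Figure D4:**
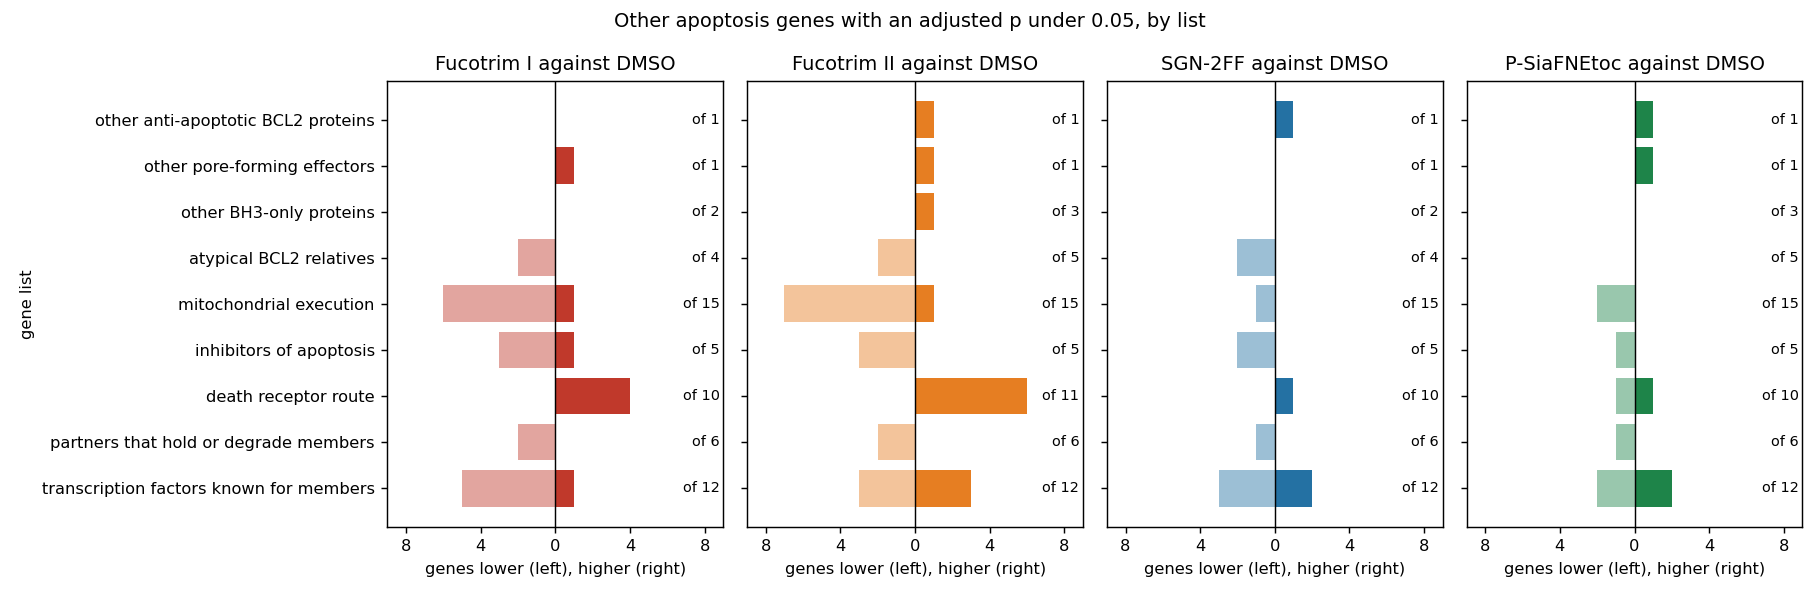
Genes of 9 apoptosis lists with an adjusted p under 0.05, by inhibitor, with genes higher than in DMSO to the right of 0 and genes lower to the left (paler), and the number tested at the right edge. With Fucotrim I and Fucotrim II, 6 and 7 of 15 execution genes were lower (22.1% and 25.7% of all genes), and 4 of 10 and 6 of 11 death receptor genes were higher (21.6% and 25.6% of all genes).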

How the data were processed

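The authors prepared libraries with a stranded mRNA kit from 3 biological repeats per condition, sequenced them as single reads, trimmed with Cutadapt, mapped to hg38 with HISAT2 and counted genes with featureCounts. They deposited raw counts in a separate table for each inhibitor, and every table repeats the DMSO libraries, with identical counts over the 27819 genes present in all 4. Of Fucotrim II, the series holds 2 libraries, and both were analysed here. Strand setting and annotation release were not given in the sources used here. Genes without a symbol held 0.0538% of the counts in the SGN-2FF table.

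Counts were fitted with edgeR 4.0.16 in R 4.3.3 (filterByExpr, minimum count 10 and total 15, TMM, robust quasi-likelihood test, Benjamini-Hochberg adjustment), which was checked on simulated counts, with limma 3.58.1 and DESeq2 1.42.0 as alternatives. The members and lists were chosen with earlier results of these data known. Every member is named in every comparison, and of each list the called gene with the largest change. Same-numbered libraries of Fucotrim I and DMSO deviated together, weakly for number 3 (r = 0.405, 0.542 and 0.117 for numbers 1, 2 and 3). The fits reported above did not use these numbers, and adding them as a replicate block left the same 6 members called. Positions are GENCODE v44.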

Additional observations from a re-analysis of the deposited data

How the results depend on the processing

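Every member was refitted against each inhibitor under 14 alternatives, 560 values in all, of which 516 kept their direction and their side of the threshold, 29 lost a call, 9 gained one and 6 turned direction. These counts include the fits of Fucotrim II without 1 of its 2 libraries. Such a fit has a single treated library and no spread among treated libraries, so its calls do not show whether a call is stable. The reversed values, none of which had been called, all came from leaving out a library: PMAIP1 with Fucotrim I (range -0.23 to 0.11, positive without DMSO replicate 1, at 0.06, or Fucotrim I replicate 1), BCL2L1 with Fucotrim II (-0.09 to 0.20, negative without replicate 2), BBC3 with SGN-2FF (-0.02 to 0.17, negative without DMSO replicate 2), PMAIP1 with SGN-2FF (-0.17 to 0.01, positive without DMSO replicate 1) and BCL2 with P-SiaFNEtoc (-0.12 to 0.01, positive without replicate 3). Leaving out 1 library at a time gave 3 to 7 members called with Fucotrim I, 0 to 2 with SGN-2FF, and 1642 to 3109 genes with SGN-2FF and 1516 to 2115 with P-SiaFNEtoc. The 0 with SGN-2FF came without DMSO replicate 1, and BAX, BBC3 and MCL1 were the 3 kept with Fucotrim I. An adjusted p under 0.01 left 3 members with Fucotrim I (of 6), 1 with SGN-2FF (of 2), 1609 genes with SGN-2FF (of 2946) and 1171 with P-SiaFNEtoc (of 2331). All 14 libraries in 1 fit gave 0 members and 1695 genes with SGN-2FF, and 1 member (BMF) and 998 genes with P-SiaFNEtoc. DESeq2 called 1942 genes with SGN-2FF and 1482 with P-SiaFNEtoc. The cause of these shifts was not tested. The replicate block called 5 members with P-SiaFNEtoc, adding BBC3 (edgeR adjusted p = 0.00425) and PMAIP1 (0.0491). The correlations of same-numbered libraries were of mixed sign there (r = -0.136, 0.139 and 0.0626) and with SGN-2FF (0.347, -0.174 and -0.407), so these numbers gave no clear pairs. The block changed no other call of a member. With Fucotrim II, whose titles and library names carry different numbers (r = -0.615 and 0.531), either block called 8 members, and 5300 or 7779 genes. With 2 or 3 libraries a group and 85 to 241 counts for BCL2, BID and PMAIP1, small changes of these genes may have been missed.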

Other observations

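Among the 11223 genes tested with both Fucotrims that have a RefSeq promoter window, 12.4% hold CACGTG in at least 1 window. The share was 14.2% of the 1872 genes higher with both Fucotrims, 11.6% of the 2128 genes lower with both and 12.2% of the other 7223. BAX, BBC3 and BID are 3 of the 1872. These shares are descriptions with no test, and genes with several windows have more chances to hold the motif.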
